A study of Gallus gallus with 6 samples.

Results

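The genes described here are the RNA sensors and interferon receptors of the hen's uterovaginal junction. They include the cytosolic sensors IFIH1 and DHX58, the adaptor MAVS, the ubiquitin ligase TRIM25 and the kinase TBK1. The receptor chains IFNAR1, IFNAR2, IFNGR1 and IFNGR2 and the receptor-bound kinase JAK1 complete the list. The rule picks rows by gene symbol and uses no measured value, although it was written with earlier results of these data known. Of the 10 symbols, 9 had a row among the 20285 rows of the count table, and all 9 had enough counts to be among the 15655 rows tested. No row carried the symbol IFNAR2, which is not analysed here. RNA came from the uterovaginal junction, the oviduct segment with the sperm storage tubules, of breeder hens kept at a thermoneutral 23 °C or heat-stressed for 6 h at 36 °C. Each group had 3 libraries, and each library pooled RNA of 4 hens, 24 hens in all. The labels give no strain, age or other treatment, and spread between libraries is spread between pools.

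A cell senses viral RNA in its cytosol through helicases that bind long double-stranded RNA. IFIH1 (MDA5) is such a sensor, and DHX58 (LGP2) is its relative without signalling domains, which modulates it. Chickens are known to lack the related sensor RIG-I. The bound sensor assembles MAVS on the mitochondrial surface, MAVS recruits the kinase TBK1, and TBK1 activates the transcription factors that induce interferon genes. Secreted type I interferon binds IFNAR1 with IFNAR2, interferon gamma binds IFNGR1 with IFNGR2, and JAK1 serves both receptors. IFIH1, DHX58 and TRIM25 are themselves interferon-induced genes, whereas receptor chains and JAK1 are made in most cells without interferon.

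The deposited counts summed to between 23438814 and 29502991 per library. HSP90AA1, the inducible HSP90 chaperone, lay at 1810 to 2167 CPM (counts scaled to a common library total and composition) in the thermoneutral libraries. It stood at 7760, 17130 and 14781 CPM in heat stress replicates 1, 2 and 3, so heat stress replicate 1 had the smallest rise. Of the 12 symbols fixed for this oviduct region, 8 had a row. PGR, the progesterone receptor, averaged 522 CPM and PAX2, an oviduct transcription factor, 172 CPM in the thermoneutral group. All 8 rows together summed to 769 to 906 CPM in the thermoneutral libraries, so most of the sum came from PGR and PAX2.

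Of the 9 genes, 1 was lower under heat stress (TRIM25), 1 was higher (IFNGR2), and 7 did not pass edgeR's quasi-likelihood test at an adjusted p of 0.05. Across all rows tested, 19.8% passed, 9.52% lower and 10.2% higher, so a share of 22.2% among these genes is near the background. No overlap between the groups was seen in 5 of the 9, which are IFIH1, DHX58, TRIM25, IFNGR1 and IFNGR2, against 42.6% of all rows tested. The median log2 change of the 9 genes was −0.10 and that of all rows −0.01. All 3 interferon-induced members lay lower in every heat stress library than in any thermoneutral library, and both interferon gamma receptor chains lay higher. MAVS, TBK1, IFNAR1 and JAK1 overlapped between the groups.

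**Figure D1:**
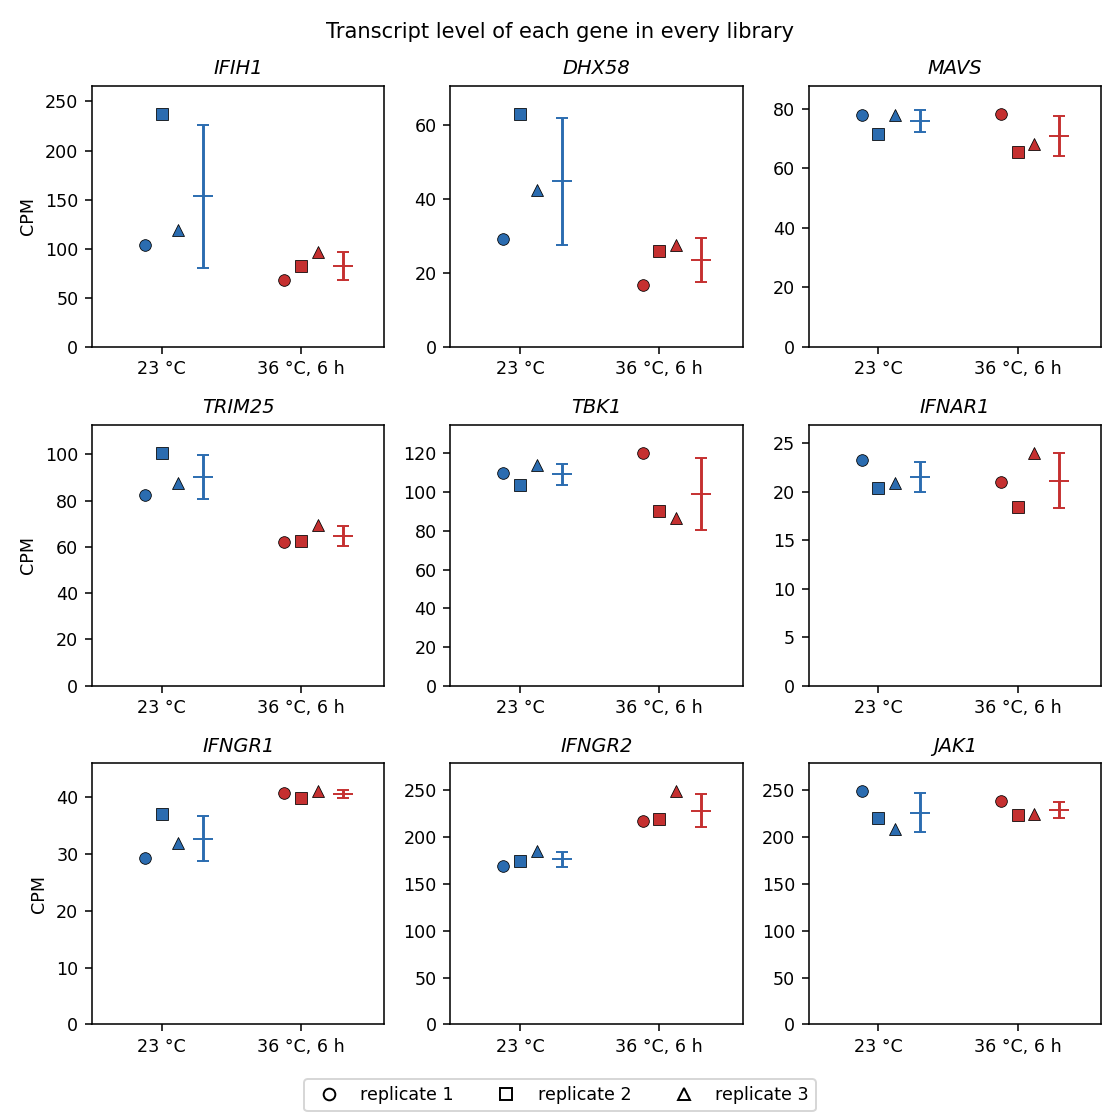
CPM of each of the 9 genes (y axis, from 0) in the thermoneutral (23 °C, blue) and heat stress (red, 6 h at 36 °C) libraries; symbols mark the replicate, and bars at the side give mean ± SD over n = 3 libraries. IFIH1 reached 237 CPM in thermoneutral replicate 2 and stayed between 67.7 and 96.7 CPM in the heat stress libraries.

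IFIH1 lies on chromosome 7 (21044187 to 21071090, build GRCg6a). It was measured at 104, 237 and 119 CPM in thermoneutral replicates 1, 2 and 3, and at 67.7, 82.8 and 96.7 CPM in heat stress replicates 1, 2 and 3. Thermoneutral replicate 2 stood far above the other two, yet even the lowest thermoneutral library lay above the highest heat stress library. The log2 change was −0.90 (SE 0.34, 95% interval −1.73 to −0.06), a 1.86-fold lower mean, and it did not pass (adjusted p = 0.118). Without thermoneutral replicate 2 the log2 change was −0.43 (adjusted p = 0.132). In the fits with a library left out, IFIH1 passed in 0 of 6 with edgeR, at adjusted p from 0.0857 to 0.257. It did not pass DESeq2 or limma-voom either, and its unadjusted p over all libraries was 0.0396.

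DHX58, on chromosome 27 (7642263 to 7646075), followed the same order of libraries. It was measured at 29.1, 63.0 and 42.3 CPM in thermoneutral replicates 1, 2 and 3, and at 16.6, 26.0 and 27.6 CPM in heat stress replicates 1, 2 and 3. The groups were separated by a narrow gap, between 27.6 and 29.1 CPM. Its log2 change was −0.94 (SE 0.32, 95% interval −1.70 to −0.17), 1.91-fold lower, with an adjusted p of 0.0847. DESeq2 called it lower (log2 change −0.93, adjusted p = 0.00686), but limma-voom did not (adjusted p = 0.0826). With a library left out, DHX58 passed in 0 of 6 fits with edgeR, at adjusted p from 0.0507 to 0.191. Without thermoneutral replicate 2 the change was −0.61 (adjusted p = 0.191).

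The proportion of the sensor to its relative overlapped between the groups. Per transcript length, in the deposited FPKM values, IFIH1 was 1.69 ± 0.254 times DHX58 in the thermoneutral libraries and 1.80 ± 0.226 times in the heat stress libraries (mean ± SD, n = 3 each). The log2 difference of this ratio was 0.09, in an exact two-sided permutation test with p = 0.7. Such a ratio within a library does not depend on how libraries are scaled.

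DHX58 neighbours a locus that rose steeply. KAT2A, a histone acetyltransferase, ends 359 bp upstream of DHX58 on the same strand. It went from 48.5 to 51.0 CPM in the thermoneutral libraries to 83.2, 420 and 346 CPM in heat stress replicates 1, 2 and 3 (log2 change 2.50, SE 0.59, adjusted p = 0.038). With a library left out, this call held in 1 of 6 fits with edgeR. Beyond KAT2A, rows annotated as pseudogenes rose more. The nearest (7653224 to 7653761, same strand) went from a mean of 0.924 to 1182 CPM (log2 change 10.3, adjusted p = 0.0107). The next (7654604 to 7655550, opposite strand) went from 86.7 to 3807 CPM (log2 change 5.46, adjusted p = 0.0219). With a library left out they passed in 5 and 1 of 6 fits. DHX58 was lowest in heat stress replicate 1, where KAT2A rose least. Among the heat stress libraries, IFIH1 on chromosome 7 and 31 of 35 tested rows of interferon-induced genes were also lowest in that replicate. Whether reads running past KAT2A are counted in DHX58 was not tested. No row of the table overlaps any of the 9 genes.

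**Figure D2:**
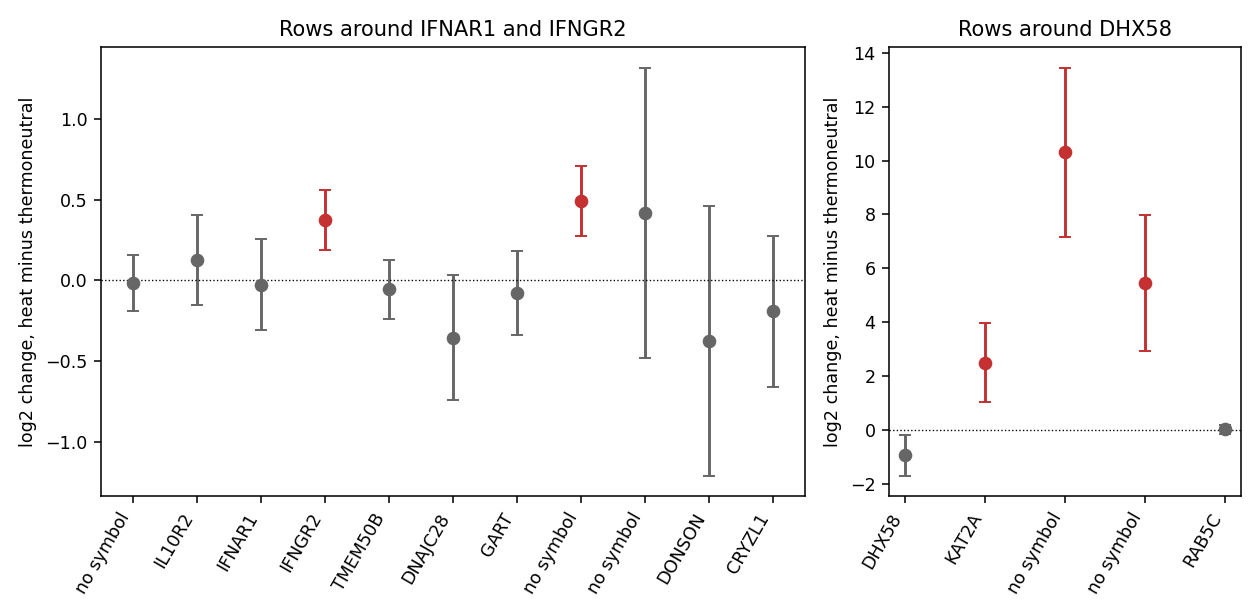
Log2 change with 95% interval (y axis) of tested rows in chromosomal order around IFNAR1 and IFNGR2 (left) and around DHX58 (right), with rows higher under heat stress in red and rows that did not pass in grey. IFNGR2 stands at 0.37 beside IFNAR1 at −0.03, and DHX58 at −0.94 beside KAT2A at 2.50. The pseudogene rows beyond KAT2A stand at 10.3 and 5.46.

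Between the sensor and interferon genes, the adaptor and kinase differed little between the groups. MAVS (chromosome 4, 88534786 to 88542860), the mitochondrial adaptor, was at 78.0, 71.4 and 77.8 CPM in thermoneutral replicates 1, 2 and 3 and at 78.2, 65.5 and 68.3 CPM in heat stress replicates 1, 2 and 3. The groups overlapped, with heat stress replicate 1 the highest of all. The log2 change was −0.10 (SE 0.09, adjusted p = 0.44), and its 95% interval of −0.30 to 0.10 corresponds to 0.811-fold to 1.07-fold.

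TBK1 (chromosome 1, 33758984 to 33785156), the kinase downstream of MAVS, was at 110, 104 and 114 CPM in the thermoneutral libraries and at 120, 90.2 and 86.8 CPM in the heat stress libraries, in replicate order. Heat stress replicate 1 was again the highest, while the other two heat stress libraries were below every thermoneutral one. The log2 change was −0.14 (SE 0.13, 95% interval −0.44 to 0.16, adjusted p = 0.461). Without heat stress replicate 1 it was −0.29, and this fit called it lower (adjusted p = 0.0371).

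TRIM25 (chromosome 18, 6279757 to 6287152) encodes a ubiquitin ligase, known from mammals for activating RIG-I. It was at 82.2, 101 and 87.7 CPM in thermoneutral replicates 1, 2 and 3 and at 61.9, 62.4 and 69.6 CPM in heat stress replicates 1, 2 and 3. The heat stress libraries were close together and all below the thermoneutral ones. TRIM25 fell 1.40-fold (log2 change −0.48, SE 0.10, 95% interval −0.70 to −0.26, adjusted p = 0.0164). This call ended on dropping thermoneutral replicate 2 (log2 change −0.39, adjusted p = 0.0615). It also ended on dropping heat stress replicate 2 (−0.44, adjusted p = 0.054) or 3 (−0.53, adjusted p = 0.0537).

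**Figure D3:**
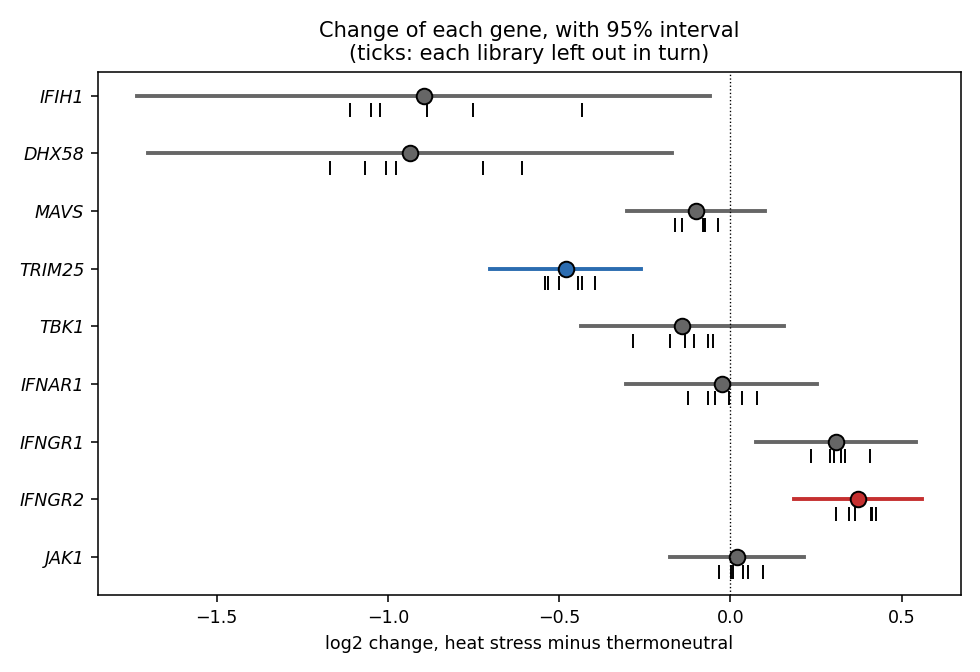
Log2 change, heat stress minus thermoneutral (x axis), of each gene with its 95% interval; TRIM25 (blue) passed as lower, IFNGR2 (red) as higher, and the others (grey) did not pass. Ticks under each bar give the change with each of the 6 libraries left out; those of IFIH1 run from −1.11 to −0.43 and those of IFNGR2 from 0.31 to 0.43.

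Of the receptor chains, IFNGR2 passed the test. IFNGR2, the signal-transducing chain of the interferon gamma receptor on chromosome 1 (106645075 to 106653536), was at 169, 174 and 185 CPM in thermoneutral replicates 1, 2 and 3. In heat stress replicates 1, 2 and 3 it was at 216, 218 and 248 CPM, each above every thermoneutral library. IFNGR2 rose 1.29-fold (log2 change 0.37, SE 0.08, 95% interval 0.19 to 0.56, adjusted p = 0.0208). This call ended on dropping thermoneutral replicate 1 (log2 change 0.34, adjusted p = 0.062) or 2 (0.36, adjusted p = 0.0789). Dropping heat stress replicate 3 ended it as well (0.31, adjusted p = 0.0757).

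IFNGR1, the ligand-binding chain on chromosome 3 (54895190 to 54914161), was at 29.2, 37.0 and 31.8 CPM in the thermoneutral libraries and at 40.7, 39.7 and 41.0 CPM in the heat stress libraries, in replicate order. The heat stress libraries were nearly equal and all higher. The log2 change of 0.31 (SE 0.10, 95% interval 0.08 to 0.54) did not pass with edgeR (adjusted p = 0.0672) or limma-voom (adjusted p = 0.0631). It passed with DESeq2 (log2 change 0.32, adjusted p = 0.0447). With a library left out, IFNGR1 passed in 0 of 6 fits with edgeR, at adjusted p from 0.0598 to 0.164.

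IFNAR1 (chromosome 1, 106613562 to 106632348), a chain of the type I interferon receptor, was at 23.3, 20.4 and 20.9 CPM in the thermoneutral libraries and at 21.0, 18.4 and 24.0 CPM in the heat stress libraries. These ranges overlap between the groups. The log2 change was −0.03 (SE 0.12, adjusted p = 0.898), and the 95% interval of 0.809-fold to 1.19-fold leaves room for changes of that size.

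JAK1 (chromosome 8, 28552333 to 28603383), the tyrosine kinase bound to both kinds of receptor, was at 249, 221 and 209 CPM in the thermoneutral libraries and at 239, 224 and 225 CPM in the heat stress libraries. Its groups overlapped too, and the thermoneutral libraries spread more widely. The log2 change was 0.02 (SE 0.08, 95% interval 0.885-fold to 1.16-fold, adjusted p = 0.889).

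The receptor genes sit side by side, and their tested neighbours on either side of IFNGR2 did not pass. On chromosome 1, in the same orientation, lie a row without a symbol, IL10R2 (a chain shared by the interleukin 10 and interferon lambda receptors), IFNAR1 and IFNGR2. The row without a symbol (106580169 to 106592227) averaged 75.4 and 74.5 CPM in the thermoneutral and heat stress groups (log2 change −0.02, adjusted p = 0.898), and IL10R2 28.5 and 31.1 CPM (log2 change 0.13, adjusted p = 0.485). A long non-coding row on the opposite strand between IFNAR1 and IFNGR2 had 5, 11 and 10 counts in the thermoneutral and 0, 0 and 5 in the heat stress libraries, too few to be tested. TMEM50B, which lies 1144 bp beyond IFNGR2 on the opposite strand, had a log2 change of −0.06 (adjusted p = 0.64). Within 150 kb of IFNAR1 and IFNGR2, the other row that passed was a protein-coding row without a symbol (106736558 to 106772088), which rose 1.41-fold (log2 change 0.49, adjusted p = 0.0152).

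Per transcript length the receptor chains differed more from each other than any of them did between temperatures. In deposited FPKM, IFNGR2 was the most abundant of the 9 genes (80.3 to 86.7 thermoneutral, 94.0 to 109 heat stress) and IFNAR1 the least (7.13 ± 0.559 and 6.53 ± 0.913). IFNGR2 lay above 93.6% of the rows tested in mean FPKM, and IFNAR1 above 37.0%. JAK1 was next to IFNGR2 at 62.9 ± 6.19 and 59.4 ± 3.60 FPKM, and IFNGR1 stood at 14.6 ± 1.72 and 16.8 ± 0.600 FPKM.

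The order of the means between these ends differed between the groups, in large part through single libraries. In the thermoneutral libraries IFIH1 (39.2 ± 18.6 FPKM), TRIM25 (34.7 ± 3.53) and TBK1 (33.8 ± 1.66) followed JAK1, each overlapping its neighbour, and then came MAVS (23.7 ± 1.23) and DHX58 (22.9 ± 8.66), which overlapped too. In the heat stress libraries TBK1 (28.6 ± 5.99) followed JAK1, then TRIM25 (23.1 ± 1.51), MAVS (20.6 ± 2.45) and IFIH1 (19.6 ± 3.22), the last 3 overlapping. DHX58 (11.1 ± 2.65) came after IFNGR1 and overlapped neither of its neighbours. Library by library, TBK1, TRIM25, IFIH1 and MAVS stood in this falling order in thermoneutral replicates 1 and 3 and heat stress replicates 2 and 3. IFIH1 was at 60.6 FPKM in thermoneutral replicate 2, against 26.8 and 30.2 FPKM in replicates 1 and 3. In heat stress replicate 1 IFIH1 was at 16.5 FPKM and MAVS at 23.4 FPKM.

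**Figure D4:**
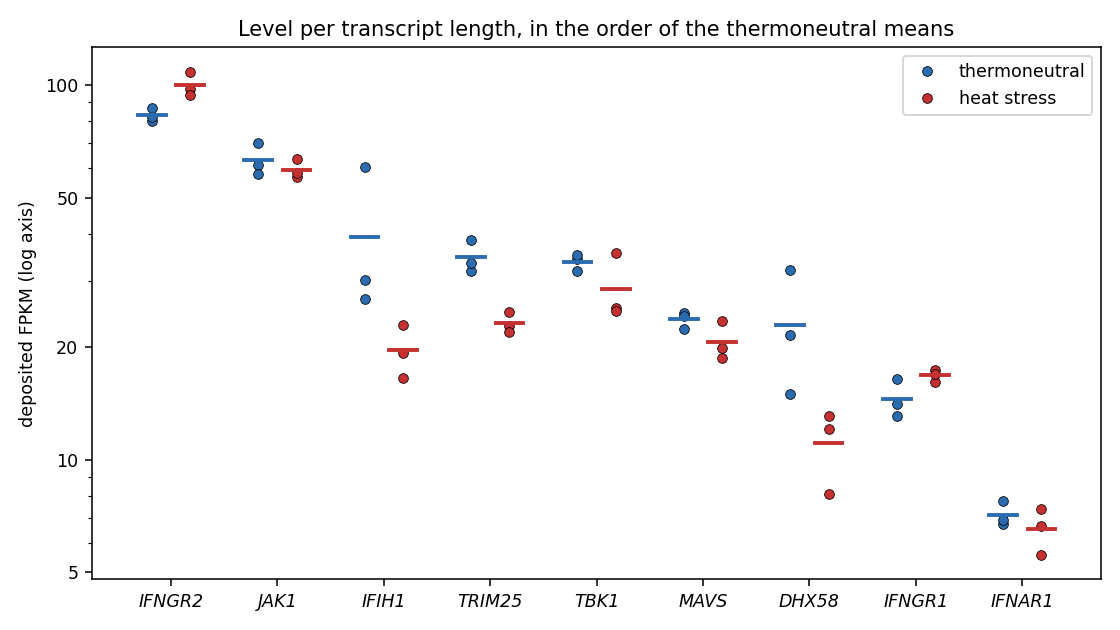
Deposited FPKM (y axis, log scale) of the 9 genes in each thermoneutral (blue) and heat stress (red) library, ordered by the thermoneutral mean; points are libraries and bars are means over 3 libraries. IFNGR2 is highest in both groups, at 80.3 to 109 FPKM over all 6 libraries, and IFNAR1 lowest, with means of 7.13 and 6.53 FPKM.

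Ratios of FPKM within a library were compared for 6 pairs of the genes, picked after the values were seen. The exact two-sided permutation test of 3 libraries against 3 cannot go below p = 0.1. IFNGR2 was 11.7 ± 1.20 times IFNAR1 in the thermoneutral and 15.4 ± 1.27 times in the heat stress libraries, without overlap (exact p = 0.1, 0.6 adjusted over the 6 pairs). The ratio of IFNGR2 to IFNGR1 was 5.75 ± 0.668 and 5.96 ± 0.408 (exact p = 0.8), with groups that overlapped. TBK1 was 1.43 ± 0.0280 and 1.38 ± 0.133 times MAVS (exact p = 0.6), and JAK1 was 1.87 ± 0.200 and 2.12 ± 0.290 times TBK1 (exact p = 0.3). IFIH1 was 1.68 ± 0.896 times MAVS in the thermoneutral and 0.965 ± 0.233 times in the heat stress libraries, with overlap (exact p = 0.2).

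Other genes of RNA sensing passed in both directions. Of 55 rows tested, 8 were lower, 11 were higher and 36 did not pass, with a median log2 change of 0.08. The shares over all rows tested were 9.52% lower and 10.2% higher. The 4 falls with the smallest adjusted p were IFI35, ZNFX1, TMEM173 and IKBKE. IFI35, an interferon-induced protein, fell 1.90-fold (91.5 ± 16.8 to 48.3 ± 2.68 CPM, adjusted p = 0.0092); another row that the file describes with this name, and which overlaps it, had a log2 change of −0.20 and did not pass. ZNFX1, a helicase that senses RNA at mitochondria, fell 1.75-fold (401 ± 76.8 to 228 ± 27.7 CPM, adjusted p = 0.0153). TMEM173 (STING), the adaptor of cytosolic DNA sensing, fell 2.12-fold (43.5 ± 13.01 to 20.6 ± 0.701 CPM, adjusted p = 0.0185). IKBKE, the closest relative of TBK1, fell 1.46-fold (34.8 ± 3.95 to 23.8 ± 2.24 CPM, adjusted p = 0.0193).

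Of the 11 rises, the 4 with the smallest adjusted p were TRAF6, DHX33, ITCH and CYLD. TRAF6, a ubiquitin ligase of innate signalling, rose 1.53-fold (19.4 ± 0.541 to 29.7 ± 3.15 CPM, adjusted p = 0.0118), and DHX33, a helicase, 1.41-fold (adjusted p = 0.0132). ITCH, a ligase known from mammals to mark MAVS for degradation, rose 1.34-fold (42.2 ± 2.87 to 56.6 ± 1.33 CPM, adjusted p = 0.0142). CYLD, a deubiquitinase known from mammals to restrain the RNA sensing pathway, rose 1.36-fold (25.7 ± 2.47 to 35.1 ± 0.122 CPM, adjusted p = 0.0187). Counts depended on single libraries. The 8 falls became 3 on dropping thermoneutral replicate 2 or 3, 2 on dropping heat stress replicate 2, and 0 in edgeR on dropping heat stress replicate 3, where 10 were lower at an unadjusted p under 0.05. The 11 rises became 6 on dropping thermoneutral replicate 1 or 3 and 5 on dropping heat stress replicate 2. They became 0 in edgeR on dropping thermoneutral replicate 2 or heat stress replicate 3, with 13 higher at an unadjusted p under 0.05 in each case.

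In the receptor signalling list, which also holds other receptor chains, 4 of 40 tested genes were lower, 6 were higher and 30 did not pass (median log2 change 0.12). Of all rows tested, 9.52% were lower and 10.2% higher, so the number of falls is near the background. Among the rises was the specific chain of the interferon lambda receptor, a row without a symbol that the file describes as interferon lambda receptor 1. It was at 25.8, 28.2 and 32.0 CPM in thermoneutral replicates 1, 2 and 3 and at 41.8, 52.3 and 52.8 CPM in heat stress replicates 1, 2 and 3. This chain rose 1.71-fold without overlap (log2 change 0.77, SE 0.12, adjusted p = 0.011). Its call ended on dropping thermoneutral replicate 2 (log2 change 0.76, adjusted p = 0.052) or heat stress replicate 3 (0.72, adjusted p = 0.0532). CRK, an adaptor protein, rose 1.36-fold (adjusted p = 0.00969), KPNA4, a nuclear import receptor, 1.40-fold (adjusted p = 0.0133), and TRIM8, a ligase known from mammals to act on SOCS1, 1.72-fold (adjusted p = 0.022).

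The falls downstream of the receptors included parts of the interferon-activated transcription complex. STAT2 fell 1.98-fold (103 ± 34.4 to 51.8 ± 2.42 CPM, adjusted p = 0.0293), and IRF10, which the file describes as interferon regulatory factor 9, fell 2.09-fold (41.3 ± 15.1 to 19.8 ± 3.76 CPM, adjusted p = 0.0403). USP41, described in the file as USP18, a negative regulator that binds IFNAR2 in mammals, fell 4.26-fold (adjusted p = 0.0164). SOCS3, a cytokine signalling inhibitor, fell 1.54-fold (12.98 ± 2.79 to 8.46 ± 0.511 CPM, adjusted p = 0.0459). The 4 falls became 2 on dropping thermoneutral replicate 2 or heat stress replicate 1 and 1 on dropping thermoneutral replicate 3. They became 0 in edgeR on dropping heat stress replicate 2 or 3, with 6 and 7 lower at an unadjusted p under 0.05. The 6 rises became 3 on dropping thermoneutral replicate 1 or 3 or heat stress replicate 2, and 1 on dropping thermoneutral replicate 2. On dropping heat stress replicate 3 they became 0 in edgeR, with 9 higher at an unadjusted p under 0.05.

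**Figure D5:**
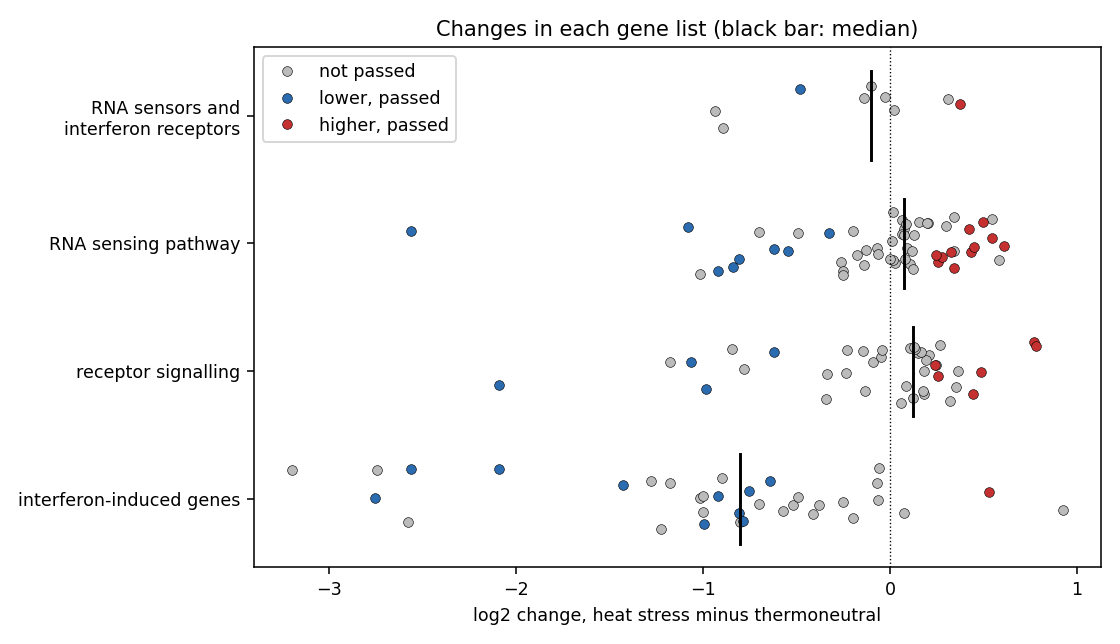
Log2 change (x axis) of each tested gene in 4 groups of genes (rows), with blue for lower, red for higher and grey for not passed; black bars are medians. The medians are −0.10 for the RNA sensors and interferon receptors, 0.08 for the sensing pathway, 0.12 for receptor signalling and −0.80 for interferon-induced genes (−0.50 without thermoneutral replicate 2).

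The interferon-induced genes other than the members were mostly lower among those that passed. Of 35 rows of such genes tested, 10 were lower, 1 was higher and 24 did not pass. Over all rows tested, 9.52% were lower and 10.2% higher. The median log2 change of the list was −0.80, or −0.50 on dropping thermoneutral replicate 2. IFI35 and CCL19 each have more than 1 of these rows. Of the 35, 8 are also in the sensing list and 2 in the receptor signalling list. The 4 falls with the smallest adjusted p were IFI35 and ZNFX1, given above, CD274, an immune checkpoint ligand (14.7 ± 1.90 to 8.49 ± 0.676 CPM, adjusted p = 0.0141), and MX1, an antiviral GTPase (log2 change −1.43, adjusted p = 0.0154). The gene that rose, HERC4, is a ubiquitin ligase not generally known as interferon-induced. Among the thermoneutral libraries 34 of the 35 were highest in replicate 2, as were 4 of the 9 members, IFIH1, DHX58, TRIM25 and IFNGR1. Among the heat stress libraries 31 of the 35 were lowest in replicate 1, as were 4 members, IFIH1, DHX58, TRIM25 and IFNGR2. The shares over all rows tested were not counted. The 10 falls became 5 on dropping thermoneutral replicate 2 or 3 or heat stress replicate 1, and 4 on dropping heat stress replicate 2. On dropping heat stress replicate 3 they became 0 in edgeR, with 18 lower at an unadjusted p under 0.05. Interferon ligands could hardly be assessed, since 1 of the 12 ligand symbols had a row. That row, IFNG, had 0 to 10 counts per library and was not tested. For the other symbols a missing row does not show missing RNA, as 12494 of the 20285 rows carry a symbol.

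Markers of several cell types mostly had log2 changes below 0 in the same comparison, but few passed. Over all rows tested, 9.52% were lower, and each summed level given here overlapped between the groups. Of 16 tested macrophage and dendritic cell markers 4 were lower under heat stress and 15 had a log2 change below 0 (median −0.40), with the complement subunit C1QB at −1.09. Their summed level was 1625 to 1806 CPM in the thermoneutral and 1192 to 1666 CPM in the heat stress libraries. Smooth muscle markers had 1 of 11 lower and all 11 below 0 (median −0.40), at sums of 5557 to 8931 CPM and 5297 to 7058 CPM. Fibroblast markers had 2 of 9 lower and all 9 below 0 (median −0.25), at 3534 to 5317 CPM and 3844 to 4075 CPM, and 2 of 8 B and plasma cell markers were lower. The summed level of T and NK cell markers was 126 to 153 CPM and 103 to 147 CPM, and that of surface epithelium markers 6149 to 6969 CPM and 6139 to 7354 CPM. Passing markers numbered 0 of 14 for T and NK cells, 0 of 7 for surface epithelium and 0 of 7 for ciliated epithelium. Of 12 endothelial markers, 1 was lower and 1 higher. In RNA of whole tissue, fewer cells of a type and less RNA per cell cannot be told apart, and the part of these markers in the lower values of IFIH1, DHX58 and TRIM25 was not tested.

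The genes with the most similar profile were sought among 11118 other tested rows with a symbol. The measure was the root mean square distance between log2 CPM profiles over the 6 libraries, each centred on its own mean, with no test. Closest to DHX58 were IRF7, an interferon regulatory factor downstream of TBK1 (distance 0.08, against a median of 0.63 over all rows), IRF10 (0.13) and ADAM8, a metallopeptidase (0.14). ADAM8 averaged only 0.90 CPM in the thermoneutral and 0.51 CPM in the heat stress group, a level where counting error matters. Closest to IFIH1 were the rarer transcripts TRPM6 (0.10), ECT2 (0.11) and MYO7B (0.12), at thermoneutral means of 3.42, 2.48 and 3.23 CPM, where counting error is larger. IFNAR1 was closest to TNFRSF19, NOP58 and MID1 (0.04 to 0.05), and JAK1 to ENY2, SYTL3 and MCC (0.02 to 0.03), with log2 changes between −0.02 and 0.02 in all 6 of them.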

How the data were processed

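Per the labels' protocols, RNA of 4 hens was pooled per library, messenger RNA was selected on poly-T beads and the second strand was made with dUTP. The authors deposited raw read counts and FPKM per gene; the submitters' processing notes name fastp, featureCounts 1.5.0-p3 and HISAT2 2.0.5, and the build GRCg6a. The strand setting and annotation release were not given in the sources used here. Reads of neighbouring or antisense genes may therefore be mixed. Testing used edgeR 4.0.16 (R 4.3.3) with filterByExpr and TMM scaling (robust quasi-likelihood test, Benjamini-Hochberg adjustment over 15655 rows, threshold 0.05); limma 3.58.1 and DESeq2 1.42.0 were alternatives. SE is the absolute log2 change over the square root of F. CPM uses TMM-scaled library sizes. FPKM served for levels per length. At these depths counting error matters mainly in genes near or under 1 CPM. Rows without a symbol were named for the lists from RefSeq (GRCg7b) by NCBI gene number or transcript accession, names only. A separate list of added names took precedence where it held a row. The rows given as USP41, DHX33, CD274 and HERC4 carry no symbol of their own. Libraries of 1 group differed by more than sampling noise, at 22.1 to 107 in chi-square per degree of freedom. The scripts were tested on simulated data. Members and lists were chosen with earlier results of these data known. Named were all members and up to 4 genes per direction in each pathway list, by adjusted p; others named were chosen after their values were seen. Promoter motifs were not searched, since no promoter sequence was used here.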

Additional observations from a re-analysis of the deposited data

How the results depend on the processing

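Each library is a pool, and 3 pools per group limit what can pass. Relative log expression scaling left the calls of TRIM25 and IFNGR2 as they were, as did upper-quartile scaling, no filter, a stricter filter, DESeq2 and limma-voom. DESeq2 called 2 members lower and 2 higher. Members lower numbered 0 to 2 and members higher 0 to 1 with a library left out. With a library left out, the log2 change of IFNAR1 ran from −0.124 to 0.077 and that of JAK1 from −0.034 to 0.096, both crossing 0. JAK1 was also at −0.020 with upper-quartile scaling and −0.006 with the stricter filter. All genes called numbered 299 to 3699 with a library left out, against 3092. There the sensing list had 0 to 7 lower and 0 to 12 higher, the receptor signalling list 0 to 4 and 0 to 9, and the interferon-induced list 0 to 10 and 0 to 2. Receptor signalling genes lower were 7 with upper-quartile scaling and 7 with the stricter filter. Settings for the interferon-induced list were chosen after seeing the data: 6 were lower with no filter and 19 with DESeq2. The cause of these shifts was not tested. Deviations from the group means correlated at −0.05, 0.25 and 0.07 between libraries of the same replicate number. Between libraries of different numbers the correlations ran from −0.27 to 0.21. With 3 libraries centred on each group mean, these values cannot show whether the replicate numbers pair the libraries. With a replicate block 2 members were lower, TRIM25 and DHX58 (adjusted p = 0.0203), and 17 rows of the interferon-induced list were lower.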
